A study of Drosophila melanogaster with 12 samples.

Results

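Polyadenylated RNA of 8 samples of S2 cells, a *Drosophila melanogaster* line of embryonic origin with features of blood cells, was compared between the 4 samples of replicates 1 and 2 (set 1) and the 4 samples of replicates 3 and 4 (set 2). These are 8 of the 12 samples of a study of *barc*, which encodes Barricade, related to the human protein Tat-SF1 that acts in transcript elongation and splicing. The other 4 samples are sorted neuroblasts and are not used here. Set 1 held 2 samples treated with double-stranded RNA against *barc* (dsbarc) and 2 treated with double-stranded RNA against mCherry (dsmCherry), a sequence that flies lack. Set 2 held 2 dsbarc and 2 dsmCherry samples of the same kind. In all 4 groups the cells had been kept in Schneider's medium with 10% heat-inactivated serum and treated for 7 days, and the strand-specific libraries had been made on a robot with the same kit. The sets were told apart by the replicate number and by the first number in the sample descriptions, which is 1 for every set 1 sample and 2 for every set 2 sample. The labels do not say what that number stands for, nor that replicates were separate cultures, so the p-values measure the spread between these samples, which may be technical. The contrast below is set 1 minus set 2 with the double-stranded RNA as a block, and it is not an effect of *barc*.

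S2 cells grow without a tissue around them, and separate stocks and passages of the line can differ in their transcripts. Several programmes in them respond to culture conditions. Heat shock factor drives the chaperone genes, the transcription factor Nrf2 (*cnc* in flies) drives glutathione enzymes, and the Toll and IMD pathways drive antimicrobial peptides. As a blood-cell-like line they also carry some of the transcripts of plasmatocytes, the phagocytes of the fly.

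Levels are given as FPKM, the fragments of a gene per kilobase of its transcript and per 1000000 (1 M) mapped fragments. The width of each value's confidence interval implies a fragment number, and these numbers sum to 14.6 to 28.6 M per sample in set 1 and 17.9 to 20.7 M in set 2. The targeted gene followed the labels. In set 1 *barc* stood at 7.32 and 4.27 FPKM in dsbarc samples and at 21.1 and 23.9 FPKM in dsmCherry samples. In set 2 it stood at 3.02 and 3.22 FPKM in dsbarc samples and at 20.9 and 22.3 FPKM in dsmCherry samples. All 4 dsbarc samples lay below all 4 dsmCherry samples, and the difference between the sets was 0.37 on the log2(FPKM + 1) scale (SE 0.18, n = 4 per set, limma adjusted p = 0.163). The *barc* locus overlaps *CG33288* and *rgn*. The replicates of set 2 dsmCherry stood apart from each other. Their median absolute log2 distance over the tested genes was 0.27, and 259 genes differed at least 2-fold between them. In the other 3 groups the distance between replicates was 0.075 to 0.095, with 6 to 8 such genes. Between the sets the distance was 0.339 to 0.366 for dsbarc samples and 0.235 to 0.335 for dsmCherry samples, so for dsmCherry it spanned the distance between the set 2 replicates. Set 2 dsmCherry replicate 3 lay nearer to the set 1 dsmCherry samples (0.249 and 0.235) than to replicate 4 of its own group. That replicate 4 in turn lay nearer to the set 2 dsbarc samples (0.247 and 0.24) than to replicate 3.

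**Figure D1:**
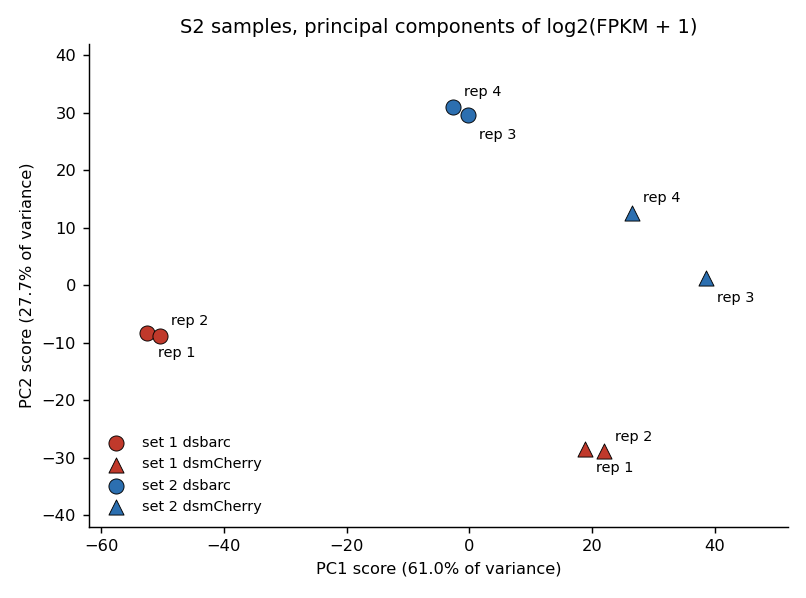
Principal components of log2(FPKM + 1) over the 7603 tested genes, 1 point per S2 sample; colour marks the set and shape the double-stranded RNA. PC1 holds 61.0% of the variance and orders dsbarc left of dsmCherry within each set, PC2 holds 27.7% and separates set 1 (negative scores) from set 2 (positive scores) within each treatment; the set 2 dsmCherry samples are the replicates that lie farthest apart.

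Of 7603 genes tested, 2018 differed between the sets at a limma adjusted p under 0.05, which is 26.5%. Of these, 989 were higher in set 1 (13.0% of tested genes) and 1029 were lower (13.5%). Large differences lay mostly on the lower side. At least 2-fold differences on the log2(FPKM + 1) scale numbered 132 higher genes (1.74%) and 385 lower genes (5.06%). The median absolute log2 difference of the called genes was 0.65, and the median over all tested genes was -0.01. The split of calls depends on the scale: with values rescaled to TPM (each gene's share of the summed FPKM, per 1 M) 65.1% of the called genes were higher in set 1, against 49.0% on the FPKM scale, and the median of all genes moved to 0.09. Leaving out 1 sample gave between 1135 calls (without set 2 dsbarc replicate 4) and 2944 calls (without set 2 dsmCherry replicate 4). The count was 1233 without set 1 dsbarc replicate 1, 1150 without set 1 dsbarc replicate 2 and 1172 without set 2 dsbarc replicate 3.

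Of the 12 genes with the largest negative differences, 8 lay under 0.5 FPKM in every set 1 sample. *Obp99a*, *Kaz1-ORFB* and *Msr-110* were above that level in every sample of both sets. *CG14516* had 0.256 and 0.394 FPKM in set 1 dsbarc and 5.96 and 5.74 FPKM in set 1 dsmCherry samples. In set 2 it had 22.7 and 19.2 FPKM in dsbarc and 35.65 and 33.8 FPKM in dsmCherry samples. *Obp99c*, which encodes a small secreted protein of the odorant-binding family, had 0.304 and 0.124 FPKM in set 1 dsbarc and 0.149 and 0.0657 FPKM in set 1 dsmCherry samples, against 16.9 and 17.4 FPKM in set 2 dsbarc and 20.1 and 14.4 FPKM in set 2 dsmCherry samples. All 4 set 1 values lay far under all 4 set 2 values, and the log2(FPKM + 1) difference was -3.97 (SE 0.13, limma adjusted p = 1.42e-06). The neighbouring family member *Obp99a* had 5.37, 5.78, 14.2 and 21.2 FPKM in set 1 samples, against 143, 126, 163 and 102 FPKM in set 2 samples, each time with the dsbarc pair first. The loci lie at 3R:25511458-25512501 and 3R:25497382-25498056 in the coordinates of the tables, and the first overlaps *Gycalpha99B*. *Dr*, which encodes a homeobox factor of nerve and muscle patterning, had 0, 0.0270, 0.0160 and 0.0142 FPKM in set 1, against 19.3, 21.3, 8.32 and 9.80 FPKM in set 2. *exex*, the homeobox factor of motor neurons, had 0.0908, 0.0276, 0.0664 and 0.0732 FPKM in set 1, against 14.6, 14.4, 4.11 and 6.18 FPKM in set 2. In both homeobox genes the set 2 dsbarc values were above the set 2 dsmCherry values, while set 1 was near 0 in every sample.

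Other members of this group belong to unrelated families. *Ast*, the precursor of the allatostatin A neuropeptides, had 0.0432, 0.103, 0 and 0.104 FPKM in set 1, against 28.6, 20.6, 9.48 and 7.24 FPKM in set 2. *TpnC4*, a troponin C, had at most 0.286 FPKM in set 1 and at least 9.73 FPKM in set 2. *Hsc70-2*, a relative of the heat shock protein Hsp70, had 0.179, 0.120, 0.183 and 0.202 FPKM in set 1, against 10.8, 12.8, 14.3 and 10.6 FPKM in set 2, with a log2 difference of -3.48 (SE 0.12, limma adjusted p = 1.60e-06). This gene differed by nearly the same amount within dsbarc (-3.47) and within dsmCherry samples (-3.48). Among abundant genes, *Msr-110* had 95.3, 93.6, 50.1 and 60.2 FPKM in set 1, against 941, 928, 563 and 746 FPKM in set 2. *TotM*, a secreted stress protein of the Turandot family, had 40.1, 42.7, 67.1 and 95.4 FPKM in set 1, against 691, 581, 374 and 250 FPKM in set 2. The log2 difference of *TotM* was -2.91 (SE 0.37, limma adjusted p = 0.00078). *CG34172*, *CG9782*, *CG14516*, *Kaz1-ORFB* and the abundant *CG8157* complete the list on this side, with log2 differences of -3.13, -3.50, -3.22, -3.55 and -3.10.

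The genes that were higher in set 1 were more often expressed in both sets. *CG3812* had 58.3, 56.0, 50.8 and 50.4 FPKM in set 1, against 4.45, 4.58, 5.36 and 6.47 FPKM in set 2, and the values within each set were close in both treatments (log2 difference 3.15, SE 0.12, limma adjusted p = 1.98e-06). *CG32082* had 44.3, 44.8, 10.8 and 9.32 FPKM in set 1, against 1.55, 2.63, 0.675 and 1.25 FPKM in set 2, and here the set 1 dsbarc samples stood above the set 1 dsmCherry samples. *CG2065* had 136, 139, 36.1 and 33.8 FPKM in set 1, against 8.95, 7.18, 15.2 and 12.8 FPKM in set 2. *btn*, which encodes the homeodomain factor Buttonless, had 229, 227, 314 and 271 FPKM in set 1, against 47.6, 48.3, 131 and 128 FPKM in set 2. *pUf68*, a splicing factor that binds poly(U), had 221, 221, 135 and 124 FPKM in set 1, against 58.6, 68.3, 65.6 and 65.6 FPKM in set 2. The sets do not overlap in any of these genes because the rule that named them asks for it. Over all tested genes 8.94% had all 4 set 1 values above all 4 set 2 values, and 8.54% had them below. The other genes of largest positive difference were *CG14540*, *CG42233*, *CG33225*, *CG13101*, *CG42708*, *CG33253*, *CG13998* and *CG13999*, at 1.86 to 2.48 on the log2 scale, and among abundant genes *CG18522*, *CG31694* and *CG3008*, at 1.24 to 1.39. Of the genes of these groups, *CG32082*, *btn*, *CG31694*, *CG3008*, *CG42233*, *CG13101*, *TpnC4*, *Kaz1-ORFB*, *Msr-110* and *CG14516* overlap another locus of the tables. The same holds for *Hsp83*, *JhI-21*, *CG3011*, *Nmdmc*, *Tret1-1*, *ATPCL*, *HLH106*, *Mmp1*, *cher*, *Pxn*, *betaInt-nu*, *elav*, *bgcn*, *Hen1*, *dally*, *Cp1*, *Hexo1* and *Tsp42Ej* below. The strand setting of the counting is not given in the sources used here, so reads of such a gene and of its partner cannot be told apart.

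**Figure D2:**
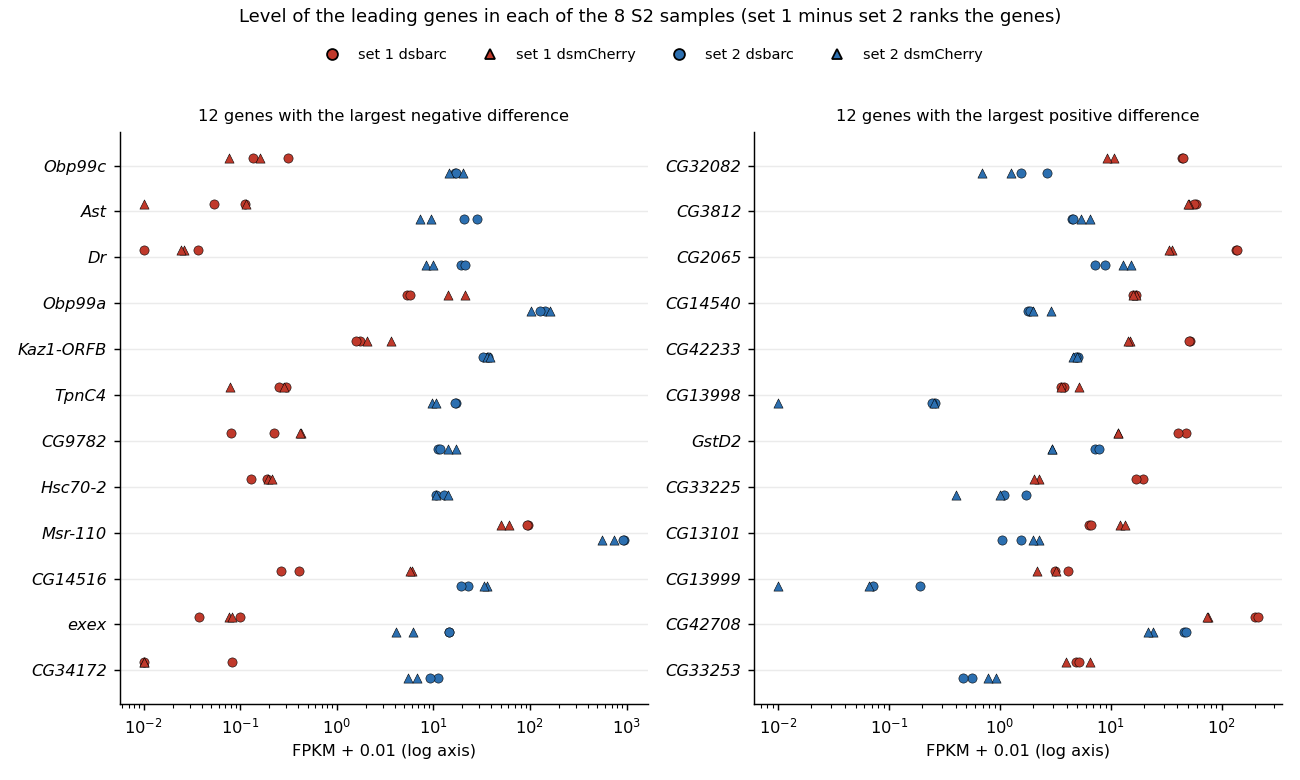
FPKM plus 0.01 (log axis) in each of the 8 S2 samples for the 12 genes with the largest negative (left) and the 12 with the largest positive difference of set 1 minus set 2; colour marks the set, drawn above its counterpart, and shape the double-stranded RNA. The 4 set 1 values do not overlap the 4 set 2 values in any gene, as the rule that chose the 24 genes requires, and 8 of the 12 genes on the left lie under 0.5 FPKM in every set 1 sample.

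Levels near 0 in one set and well above it in the other were mostly found with set 1 at the low end. By a rule chosen after the values were seen, 30 of the tested genes (0.395%) had at least 2 FPKM in all 4 set 2 samples and under 0.5 FPKM in all 4 set 1 samples, and 2 genes (0.0263%) had the reverse. The 30 included *Lkr*, the leucokinin receptor, with at most 0.0197 FPKM in set 1 and 4.13 to 11.8 FPKM in set 2, and *NetA*, a netrin guidance cue, with at most 0.361 FPKM in set 1 and 3.32 to 7.23 FPKM in set 2. *Cyp4ac2* and *Cyp12a5*, both cytochrome P450 enzymes, and *Act87E*, a muscle actin, were also among them. The 2 genes of the reverse pattern, *CG13998* and *CG13999*, lie next to each other at 2L:5956512-5956805 and 2L:5955312-5956466. *CG13998* had 3.76, 3.53, 3.53 and 5.21 FPKM in set 1, against 0.251, 0.237, 0 and 0.242 FPKM in set 2. *CG13999* had 4.08, 3.15, 3.21 and 2.16 FPKM in set 1, against 0.182, 0.0619, 0 and 0.0564 FPKM in set 2. In bulk RNA, fewer cells that carry a transcript and less of it per cell cannot be told apart.

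Heat shock and chaperone genes were lower in set 1 as a group. Of 21 tested genes of the list, 18 were lower and none was higher (limma; at an unadjusted p under 0.05 the counts were 19 and 0), against 13.5% lower and 13.0% higher over all genes, and the median log2 difference was -0.76, against -0.01 over all genes. The median was -0.86 within dsbarc and -0.57 within dsmCherry samples. *Hsp83*, the fly Hsp90, had 350 and 338 FPKM in set 1 dsbarc and 868 and 876 FPKM in set 1 dsmCherry samples, against 1229 and 1208 FPKM in set 2 dsbarc and 1604 and 1594 FPKM in set 2 dsmCherry samples (log2 difference -1.35, SE 0.18, limma adjusted p = 0.000939). *DnaJ-1*, an Hsp40 co-chaperone, had 26.3, 23.9, 74.1 and 79.3 FPKM in set 1, against 95.5, 94.1, 173 and 180 FPKM in set 2. *Hop*, which links Hsp70 to Hsp90, had 205, 211, 265 and 294 FPKM in set 1, against 370, 394, 339 and 338 FPKM in set 2, a call that was lost without set 1 dsbarc replicate 2 (limma adjusted p = 0.054) or set 2 dsbarc replicate 4 (0.051). These genes and *Hsc70-2* were the 4 members whose sets did not overlap, that is 4 of 21 in the lower direction, against 8.54% of all genes.

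Other members differed between treatments as well, and their sets overlapped. *Hsp27*, a small heat shock protein named after its values were seen, had 51.95 and 52.62 FPKM in set 1 dsbarc and 519 and 580 FPKM in set 1 dsmCherry samples, against 132 and 134 FPKM in set 2 dsbarc and 856 and 839 FPKM in set 2 dsmCherry samples. *Hsp22*, another small heat shock protein chosen the same way, had 158, 127, 1182 and 1383 FPKM in set 1, against 286, 272, 2025 and 1669 FPKM in set 2, and overlaps *Hsp67Bb*. Within each treatment every set 1 value lay below every set 2 value in both genes. The 6 tested *Hsp70* copies were all lower in set 1, by 0.54 to 1.20 on the log2 scale, but they are nearly identical in sequence, so the share of reads given to each copy is uncertain. All 6 are in the count of 18 lower genes, so the same signal may be counted several times there. *Hsc70-4*, the constitutive cytosolic Hsp70, was not called, with 1740, 1650, 1936 and 2003 FPKM in set 1 and 1582, 1543, 1762 and 1523 FPKM in set 2. *Hsp60*, the mitochondrial chaperonin, and *Hsp67Ba* were not called either. *Hsf*, which encodes heat shock factor, was lower in set 1 by 0.38 on the log2 scale. The count of 18 was 14 to 18 when 1 sample was left out, 16 with TPM or quantile normalisation, which each called 1 member higher, 8 within the dsmCherry samples alone and 2 without the treatment block.

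Glutathione and thioredoxin genes were called more often on the other side. Of 29 tested genes, 12 were higher in set 1 (41.4%, against 13.0% of all genes) and 3 were lower (10.3%, against 13.5%), and the median log2 difference was 0.31, with 0.34 within dsbarc and 0.30 within dsmCherry samples. The glutathione S-transferases of the delta and epsilon classes, detoxifying enzymes that sit in 2 gene clusters, led this list. *GstD2* had 47.6, 40.1, 11.6 and 11.6 FPKM in set 1, against 7.28, 7.86, 2.98 and 2.97 FPKM in set 2 (log2 difference 2.02, SE 0.15, limma adjusted p = 4.96e-05). *GstD5* had 409.1, 391.9, 343.5 and 311.0 FPKM in set 1, against 182, 177, 90.3 and 70.3 FPKM in set 2. *GstD1* had 1755, 1637, 607 and 619 FPKM in set 1, against 528, 532, 479 and 382 FPKM in set 2, and overlaps *GstD9*. *GstE3* had 99.7, 99.4, 44.1 and 45.9 FPKM in set 1, against 38.5, 33.6, 24.3 and 21.1 FPKM in set 2. The sets did not overlap in 8 of the 29 genes in the higher direction and in none in the lower direction, against 8.94% and 8.54% of all genes.

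*Gclc*, the catalytic subunit of the enzyme that begins glutathione synthesis, was named after its values were seen. It had 218 and 215 FPKM in set 1 dsbarc and 38.3 and 35.7 FPKM in set 1 dsmCherry samples, against 40.7 and 44.3 FPKM in set 2 dsbarc and 12.7 and 14.2 FPKM in set 2 dsmCherry samples. Within each treatment set 1 was higher. Across treatments the sets overlapped, so the rule that named the transferases left *Gclc* out whatever the size of its difference. The regulatory subunit *Gclm* and *cnc* itself were not called, with log2 differences of 0.12 and 0.13. *Cat*, which encodes catalase, was higher by 0.63, and *Sod*, which encodes superoxide dismutase, was not called at -0.01. The 3 lower genes were *GstE9*, *GstS1* and *Men*, at -0.84, -0.56 and -0.32. The count of 12 higher genes was 9 to 15 when 1 sample was left out, 17 with TPM or with quantile normalisation, 4 within the dsmCherry samples alone and 3 without the treatment block.

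**Figure D3:**
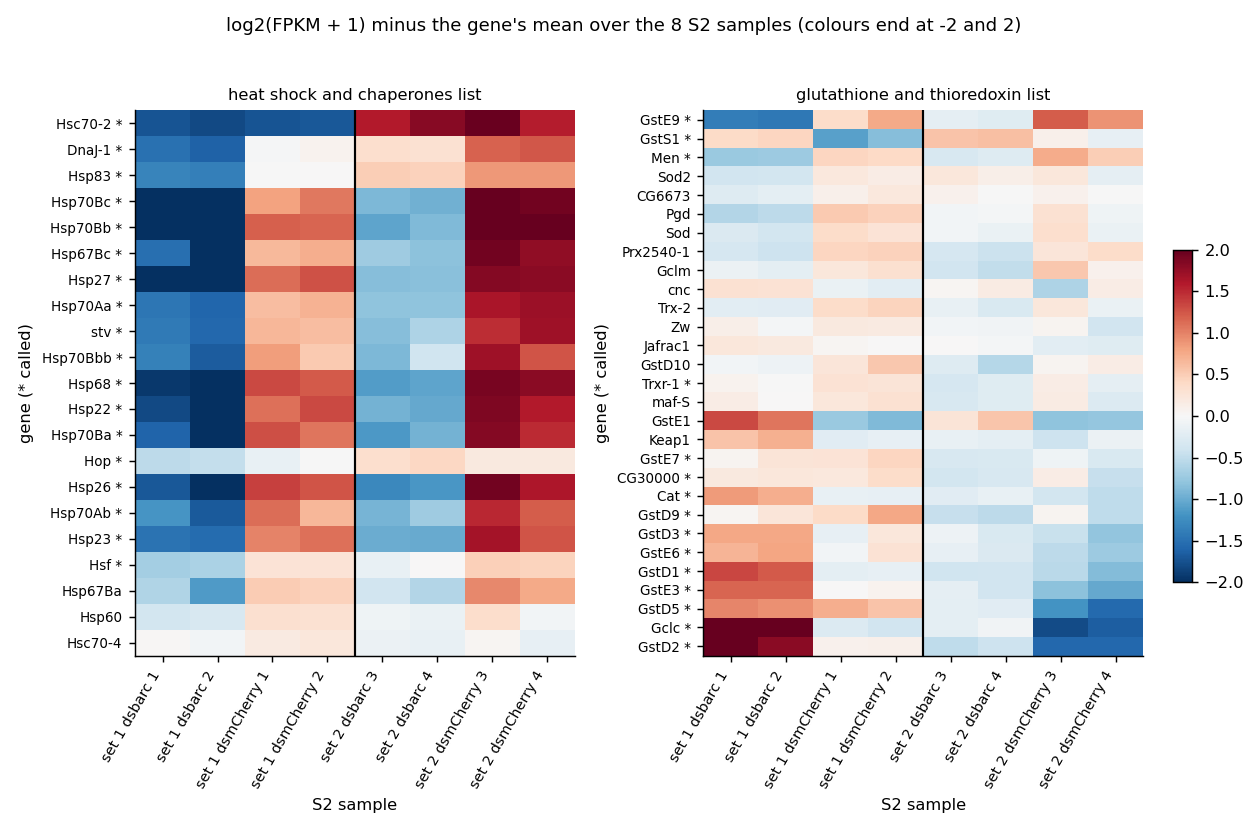
Level of each gene (rows) in each S2 sample (columns) as log2(FPKM + 1) minus the gene's mean over the 8 samples, for the heat shock and chaperone list (left) and the glutathione and thioredoxin list (right); colours end at -2 and 2, the black line parts set 1 from set 2, and an asterisk marks a called gene. On the left the set 1 dsbarc columns are the lowest and the set 2 dsmCherry columns the highest for the inducible genes, and 18 of 21 genes were called lower in set 1; on the right 12 of 29 genes were called higher in set 1.

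The counts of the lists below are to be read against the 13.0% of all genes that were higher and the 13.5% that were lower in set 1. Among other enzymes of detoxification and metabolism, 9 of 19 tested cytochrome P450 genes were lower in set 1 (47.4%), 2 were higher and 8 were not called, with a median log2 difference of -0.42. The clearest were *Cyp12a4*, with 0.717, 0.333, 1.499 and 1.441 FPKM in set 1 against 3.58, 3.60, 8.15 and 7.57 FPKM in set 2, and *Cyp4ac1*, with 0.470, 0.706, 0.176 and 0.0782 FPKM in set 1 against 2.72, 2.83, 3.07 and 4.52 FPKM in set 2. *Cyp28d1* was lower by 1.20 and *Cyp12d1-p* was higher by 1.06 on the log2 scale. *Cyp4ac1* overlaps *tkv* and *Cyp28d1* overlaps *CG7742*. With quantile normalisation the P450 counts were 5 lower and 4 higher, with a median of -0.16. With the replicate block, which links same-numbered samples of a set, the higher count was 5 (random effect) or 4 (samples averaged).

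Of 22 tested genes of the amino acid starvation and ATF4 list, 6 were lower and 3 were higher, and the lower ones included the amino acid transporter gene *mnd*, at 11.17, 12.34, 25.97 and 28.39 FPKM in set 1 against 59.99, 58.77, 53.72 and 58.51 FPKM in set 2. *JhI-21*, another amino acid transporter of the same family that is not in the list, was lower by 1.15. *Nmdmc* and *CG3011*, enzymes of the folate pathway, were lower by 1.38 and 1.15, and *Aats-asn*, an asparaginyl-tRNA synthetase, by 0.79. The median log2 difference of the whole list was 0.03. *Pepck*, the key enzyme of gluconeogenesis, had 14.7, 13.1, 28.2 and 29.6 FPKM in set 1, against 65.7, 73.5, 80.0 and 77.4 FPKM in set 2. It was the only one of 14 tested genes of the glycolysis list to be lower, while *Gpdh*, *Tret1-1*, a trehalose transporter, and *Pgi* were higher. The median of the glycolysis list was -0.21 within dsbarc and 0.39 within dsmCherry samples, against -0.1 and 0.08 over all genes. Of 24 tested respiratory chain genes 3 were lower (12.5%, near the share of all genes), among them *ATPsyn-beta* at -0.57. The median of the respiratory chain list was -0.46 within dsbarc and 0.12 within dsmCherry samples. The fit of the set effect counts such opposite shifts as spread. Of 10 hypoxia genes 2 were lower (20%), and 4 or 5 with the replicate block as a random effect or averaged. Of 17 sterol and fatty acid genes 2 were higher (11.8%, near the share of all genes), with *ATPCL* at 0.73 and *HLH106*, the fly SREBP, at 0.36, and 1 was lower. The call of *HLH106* was lost without any one of the 4 dsbarc samples (limma adjusted p = 0.078 to 0.088). The insulin and FOXO list had 1 higher gene of 15, *ImpL2* at 0.82, the metal list 1 higher of 12, *Mvl* at 0.87, and the unfolded protein list 2 higher, with *Hsc70-3* at 0.30, and 1 lower of 18. The call of *Hsc70-3* was lost without any one of the 4 dsbarc or the 2 set 1 dsmCherry samples (limma adjusted p = 0.06 to 0.12).

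Immune genes were called in both directions. Of 29 tested antimicrobial and recognition genes, 10 were lower in set 1 and 4 were higher, with a median log2 difference of -0.26. *Drs*, which encodes the antifungal peptide drosomycin, had 27.5, 34.1, 31.5 and 28.5 FPKM in set 1, against 119, 105, 88.8 and 65.9 FPKM in set 2 (log2 difference -1.58, SE 0.15, limma adjusted p = 0.000162). *pirk*, an inhibitor of the IMD pathway, had 2.05, 2.09, 1.61 and 1.29 FPKM in set 1, against 9.16, 11.3, 4.61 and 4.16 FPKM in set 2. *PGRP-LC*, the receptor at the head of that pathway, was lower by 0.72 and was named after its values were seen. *IM1* was also lower, by 0.93, and *CecB*, a cecropin, was higher by 1.05, a call that was lost without set 1 dsbarc replicate 1 (limma adjusted p = 0.053), set 1 dsbarc replicate 2 (0.059) or set 2 dsbarc replicate 3 (0.052). In the JAK/STAT list *TotM* and *TotA* were lower and the inhibitor *Socs36E* was higher by 0.43, of 12 tested genes. That is 25% called, near the 26.5% of all genes. The call of *Socs36E* was lost without set 1 dsbarc replicate 2 (limma adjusted p = 0.05). Of 17 JNK genes 5 were higher and 2 were lower. *egr*, the fly TNF ligand, had 23.3, 23.2, 42.7 and 42.2 FPKM in set 1, against 71.6, 77.9, 63.1 and 88.7 FPKM in set 2, whereas the JNK phosphatase *puc*, the protease *Mmp1* and the filamin *cher* were higher by 0.59, 0.71 and 0.79. The call of *puc* was lost without any one of the 4 dsbarc samples or set 2 dsmCherry replicate 3 (limma adjusted p = 0.062 to 0.088).

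**Figure D4:**
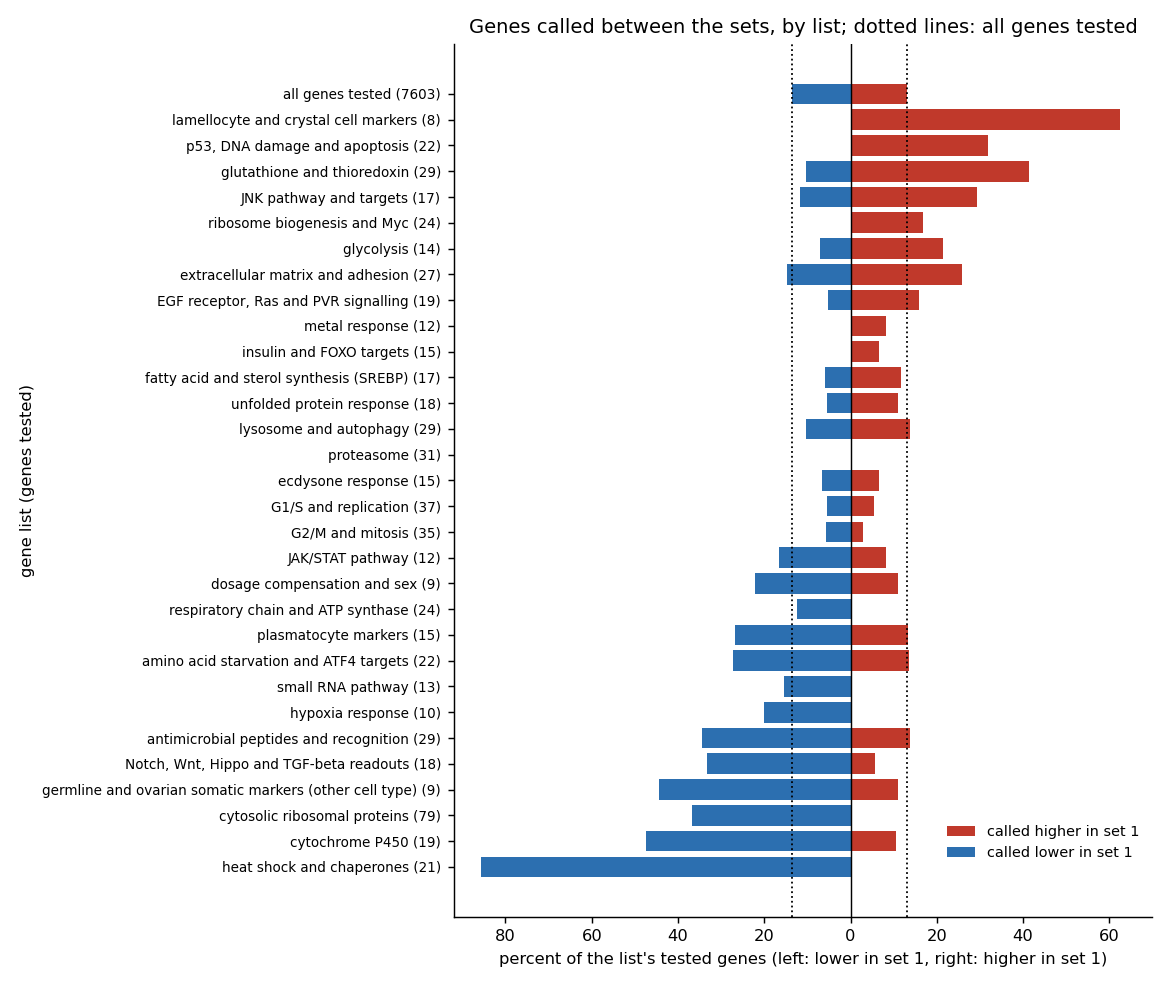
Percent of the tested genes of each list with at least 8 tested genes that were called lower (left of 0) or higher (right of 0) in set 1; dotted lines mark 13.5% lower and 13.0% higher over all 7603 genes. The heat shock list reaches 85.7% on the lower side, the lamellocyte and crystal cell list 62.5% and the glutathione list 41.4% on the higher side, and the proteasome list has no called gene.

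The blood-cell identity of the line was checked on marker lists. Of 19 plasmatocyte markers, 15 were tested, and *crq*, a scavenger receptor, the GATA factor *srp* and its partner *ush* were expressed in every sample and not called. The summed level of the list was 2030 to 6380 FPKM in set 1 and 2810 to 6100 FPKM in set 2. Of 15 tested markers 4 were lower and 2 were higher in set 1. *Hml*, hemolectin, the usual plasmatocyte marker, had 0.110, 0.118, 0.408 and 0.284 FPKM in set 1, against 4.09, 4.42, 2.91 and 9.37 FPKM in set 2, and overlaps *CG8745*. *eater*, a phagocytic receptor, had 1.94, 1.36, 1.92 and 1.33 FPKM in set 1, against 6.45, 6.69, 2.35 and 8.28 FPKM in set 2. *Pxn*, a matrix peroxidase, had 2.75, 3.38, 8.55 and 7.78 FPKM in set 1, against 1.247, 1.419, 2.032 and 1.501 FPKM in set 2. *He*, the surface protein Hemese, was higher by 1.58 and was named after its values were seen.

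The markers of the other blood cells, lamellocytes and crystal cells, summed to 653 to 1050 FPKM in set 1 and 410 to 594 FPKM in set 2. Most of each sum was *mys*, *msn*, at 70.3 to 184 FPKM over the samples, and *cher*, at 69 to 198 FPKM. Of 8 tested markers 5 were higher (62.5%) and none was lower (limma; 6 and 1 where p was under 0.05 before adjustment), the median log2 difference being 0.63, and 3 of 11 matched markers were under 1 FPKM in all samples. *mys*, the beta integrin, had 494, 569, 367 and 385 FPKM in set 1, against 308, 314, 219 and 276 FPKM in set 2. *mthl4* was higher by 0.69, *cher* by 0.79 and *betaInt-nu* by 0.42, and all of these are also found outside lamellocytes. The call of *betaInt-nu* was lost without any one of the 4 dsbarc samples or set 1 dsmCherry replicate 2 (limma adjusted p = 0.066 to 0.089). *CG42640*, a prophenoloxidase marker of lamellocytes, was not called and lay on the other side, with 18.7, 18.4, 12.2 and 10.7 FPKM in set 1 against 20.7, 20.5, 22.7 and 16.9 FPKM in set 2 (log2 difference -0.44, limma adjusted p = 0.0561). With the replicate block, as a random effect or averaged, 6 markers were higher and 1 was lower. *atilla*, the defining lamellocyte marker, was not called at 1.59 (SE 0.52, limma adjusted p = 0.0517). It had 18.7 and 12.8 FPKM in set 1 dsbarc samples, 0.0559 and 0.275 FPKM in set 1 dsmCherry samples, 1.02 and 0.934 FPKM in set 2 dsbarc samples and 0.0612 and 0.0696 FPKM in set 2 dsmCherry samples. *lz*, the crystal cell factor, was at most 0.563 FPKM. In the matrix and adhesion list, 7 of 27 genes were higher and 4 were lower, the lower ones being *Fas1*, *shg*, which encodes E-cadherin, *stan*, the cadherin Flamingo, and *Ppn*. *stan* had 0.477, 0.433, 0.0713 and 0.0425 FPKM in set 1, against 7.73, 8.85, 0.514 and 1.44 FPKM in set 2.

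Markers of cell types foreign to the line were summed in the same way. Of 18 neuron markers 14 were under 1 FPKM in all 8 samples, and the list summed to 12 to 22.5 FPKM in set 1 and 12.5 to 25 FPKM in set 2. All 3 tested neuron markers were called, in both directions. *elav* had 7.02, 6.65, 8.11 and 9.44 FPKM in set 1, against 14.4, 16.1, 9.79 and 13.4 FPKM in set 2, and its call was lost without any one of the 4 dsbarc samples (limma adjusted p = 0.051 to 0.056). *Appl*, an amyloid precursor protein, was also lower, with at most 0.993 FPKM in set 1. *brp*, a protein of the presynaptic active zone, was higher, with 9.70, 10.3, 2.28 and 1.56 FPKM in set 1, against 1.87, 2.66, 0.772 and 2.16 FPKM in set 2. The fat body and gut list summed to at most 6.86 FPKM in set 1 and 8.87 FPKM in set 2. The muscle list, 10 of 18 markers of which were under 1 FPKM in all samples, summed to 151 to 164 FPKM in set 1 and 116 to 220 FPKM in set 2, most of it *Tm1*, at 91.5 to 152 FPKM over the samples, and *how*, at 10.1 to 37.3 FPKM. *Act87E* had 0.131, 0.287, 0.447 and 0.330 FPKM in set 1, against 11.4, 11.8, 4.48 and 5.45 FPKM in set 2, while *Mhc*, which encodes muscle myosin, was at most 0.133 FPKM in any sample. The part of these cell types in the results above was not tested.

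Genes of the germline list were called lower more often than higher, and most small RNA genes were not called. Of 9 tested germline and ovarian markers 4 were lower (44.4%) and 1 was higher, with *vas* and *tj*, the defining germline and ovarian somatic markers, at or below 0.195 FPKM in every sample. *aub*, a PIWI protein of the germline piRNA pathway, had 6.16, 6.55, 8.30 and 8.37 FPKM in set 1, against 28.7, 31.1, 21.4 and 21.4 FPKM in set 2 (log2 difference -1.67, SE 0.16, limma adjusted p = 0.000167). *AGO3*, its partner, had 1.12, 0.958, 0.848 and 0.730 FPKM in set 1, against 3.12, 3.45, 2.06 and 3.53 FPKM in set 2. *bgcn*, a factor of germline differentiation, was lower by 0.83. The helicase *armi* and the methyltransferase *Hen1*, of the small RNA list, were lower by 0.73 and 0.64, and the 11 other tested genes of that list, *Dcr-1*, *Dcr-2*, *AGO1* and *AGO2* among them, were not called. The 2 lower genes of 13 (15.4%) are near the share of all genes, and the replicate block called 4 (random effect) or 3 (averaged). The innexin *zpg* was the higher germline marker, at 0.73, and was named after its values were seen. The noncoding RNAs of dosage compensation were lower as well. *roX2* had 8.75, 6.44, 41.5 and 54.7 FPKM in set 1, against 83.8, 64.3, 172 and 124 FPKM in set 2, and *roX1* had 1.26, 1.31, 0.950 and 0.966 FPKM in set 1, against 3.07, 2.14, 2.12 and 2.85 FPKM in set 2. The protein genes of the complex, *msl-1*, *msl-2*, *msl-3* and *mof*, were not called, and *mle* was higher by 0.45. The median log2 difference of 1317 tested genes on the X was -0.03, against -0.04 to 0.01 on the arms of chromosomes 2 and 3.

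Genes of DNA repair and of cell death were among the higher ones. In the list for p53, DNA damage and apoptosis, 22 genes were tested, of which 7 were higher and none was lower (limma; 9 and 0 where p was under 0.05 before adjustment). The list's median log2 difference was 0.22. *Ku80*, a subunit of the Ku complex of end joining, had 73.2, 66.3, 39.0 and 40.0 FPKM in set 1, against 23.1, 23.5, 21.0 and 17.4 FPKM in set 2 (log2 difference 1.28, SE 0.13, limma adjusted p = 0.000205). Its partner *Irbp* and the bZIP factor *Xrp1*, named after their values were seen, were higher by 0.94 and 1.10. *mre11*, of the break repair complex, was higher by 0.63, *mus205*, a translesion polymerase subunit, by 0.70, and *debcl*, a member of the Bcl2 family, by 0.93. The killer gene *rpr* was not called. Its levels followed the treatment, with 144, 122, 15.3 and 19.0 FPKM in set 1 and 67.1, 68.9, 19.0 and 28.0 FPKM in set 2. In the EGF receptor and PVR list *kek1* and *Pvf2* were higher by 1.10 and 0.54, 3 of 19 genes being higher (15.8%, near the share of all genes) and 1 lower (5.26%). In the list of Notch, Wnt, Hippo and TGF-beta readouts 6 of 18 were lower, among them the Wnt receptor *fz2*, named after its values were seen, by 1.65, *HLHmbeta*, a Notch target, by 1.31 and the coreceptor *dally* by 0.46, and 1 was higher. The call of *dally* was lost without any one sample other than the set 2 dsmCherry pair (limma adjusted p = 0.06 to 0.099). In the ecdysone list 1 gene of 15 was higher and 1 was lower, *Eip63E* by 0.83.

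Cytosolic ribosomal protein genes were shifted down by a small amount that depended on the scale. Of 79 tested genes, 29 were lower in set 1 and none was higher (limma; 46 and 1 where p was under 0.05 before adjustment), and the median log2 difference was -0.31, which was -0.46 within dsbarc and -0.17 within dsmCherry samples. *RpL39* had 2942, 3570, 2781 and 5595 FPKM in set 1, against 8366, 6059, 9921 and 7071 FPKM in set 2. *RpL35*, *RpS28b* and *RpS21* were lower by 0.63, 0.65 and 0.86. With quantile normalisation the list had 13 lower and 3 higher genes and a median of -0.06, and with TPM 30 lower and 3 higher genes. With no filter on low values 9 were lower. Leaving out 1 sample moved the count between 8 (without set 1 dsbarc replicate 2) and 59 (without set 2 dsmCherry replicate 4). It was 9 without set 1 dsbarc replicate 1, set 2 dsbarc replicate 3 or set 2 dsbarc replicate 4, 12 without set 1 dsmCherry replicate 1 and 15 without set 2 dsmCherry replicate 3. Ribosomal protein transcripts are short, and over all genes the shortest quartile by transcript length (157 to 1255 bases) had a median log2 difference of -0.25 within dsbarc and 0.09 within dsmCherry samples, with 15.8% lower and 9.93% higher in set 1. The part of transcript length in the ribosomal protein result was not tested. In the ribosome biogenesis list 4 of 24 genes were higher by limma (16.7%, near the share of all genes) and none was lower (5 and 1 at an unadjusted p under 0.05). The median log2 difference of that list was 0.02, and 1 gene was lower with the replicate block in either form. By limma none of 31 proteasome genes was called in either direction (3 higher and 1 lower at an unadjusted p under 0.05). The replicate block as a random effect called 2 higher and 1 lower. The median of the proteasome list was -0.2 within dsbarc and 0.26 within dsmCherry samples, against -0.1 and 0.08 over all genes. The fit counts such opposite shifts as spread, so the lack of calls does not mean equal levels within a treatment. In the lysosome and autophagy list 4 of 29 genes were higher (13.8%), among them the cathepsin *Cp1* by 0.80, and 3 were lower (10.3%), *Hexo1*, *CG6206* and *Tsp42Ej*. Both shares are near those of all genes. The call of *CG6206* was lost without set 1 dsbarc replicate 2 or either set 1 dsmCherry sample (limma adjusted p = 0.055 to 0.061), and that of *Tsp42Ej* without any of these or set 2 dsbarc replicate 4 (0.063 to 0.09). In the list of histone variants and structural RNAs 1 of 6 genes, *Slbp*, was lower.

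The difference between the sets was not the same in the 2 treatments. In a limma fit with an interaction term, 1702 of 7603 genes (22.4%) had a set difference that differed between dsbarc and dsmCherry samples, 1210 (15.9%) of them with a lower and 492 (6.47%) with a higher set difference in dsbarc. In 989 of the 1702 genes the set difference had opposite signs in the treatments. Of the 2018 genes called between the sets, 520 (25.8%) were also among these. The count of 1702 rests on few samples, since it was 4117 without set 2 dsmCherry replicate 3, 3168 without set 2 dsmCherry replicate 4, and between 651 and 924 without any one of the other 6 samples.

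Cell cycle genes were often among them. Of 35 tested genes of the mitosis list, 28 had a lower set difference in dsbarc than in dsmCherry samples and 1 had a higher one, and the median set difference was -1.25 within dsbarc and 0.12 within dsmCherry samples. *CycB*, a mitotic cyclin, was named after its values were seen. It had 11.4 and 13.5 FPKM in set 1 dsbarc samples and 65.8 and 67.8 FPKM in set 1 dsmCherry samples, against 65.5 and 62.6 FPKM in set 2 dsbarc samples and 56.3 and 50 FPKM in set 2 dsmCherry samples. *polo*, a mitotic kinase chosen the same way, had 15.95 and 19.79 FPKM in set 1 dsbarc samples and 94.7 and 104 FPKM in set 1 dsmCherry samples, against 84.9 and 86.6 FPKM in set 2 dsbarc samples and 93.8 and 93.7 FPKM in set 2 dsmCherry samples. In both genes the set 1 dsbarc pair lay below the other 6 samples. The interaction was -2.61 for *CycB* and -2.29 for *polo* on the log2 scale (limma adjusted p = 0.00042 and 0.00057). *rap*, which encodes the Fizzy-related activator of cyclin destruction, went the other way, with 27.6 and 27.8 FPKM in set 1 dsbarc samples and 8.50 and 7.94 FPKM in set 1 dsmCherry samples, against 6.46 and 5.97 FPKM in set 2 dsbarc samples and 5.36 and 5.78 FPKM in set 2 dsmCherry samples.

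In the replication list 25 of 37 genes had a lower set difference in dsbarc and 1 a higher one, with medians of -0.69 within dsbarc and 0.22 within dsmCherry samples. The fit of the set effect itself has treatment as a term, and it counts a set difference that differs between treatments as spread. In that fit 2 mitosis genes were lower, the phosphatase gene *stg* by 0.82 and the separase gene *thr* by 0.70, and 1, *rap*, was higher by 1.24. In the replication list 2 genes were lower, *stg* again and *Psf2*, and 2 were higher, *Cdk4* by 0.37 and *RpA-70* by 0.79. The call of *Cdk4* was lost without any one of the 4 dsbarc samples (limma adjusted p = 0.073 to 0.082). The replicate block changed these counts: when same-numbered dsbarc and dsmCherry samples were averaged, 28 mitosis genes and 16 replication genes were lower in set 1, and with the block as a random effect 16 and 7 were. The remaining dsbarc level of *barc*, 7.32 and 4.27 FPKM in set 1 against 3.02 and 3.22 FPKM in set 2, differed in the same samples, and its part in the interaction was not tested.

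**Figure D5:**
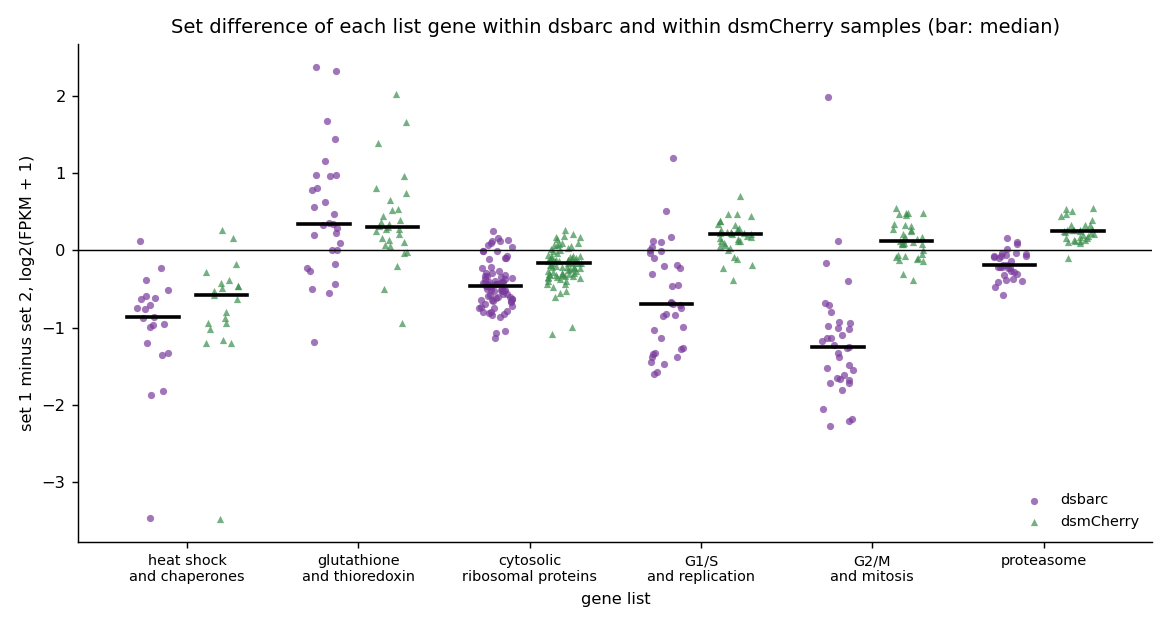
Set difference (set 1 minus set 2, log2(FPKM + 1)) of each tested gene of 6 lists within the dsbarc samples (circles, left of each pair) and within the dsmCherry samples (triangles, right); the black bar is the median of the list. The heat shock list has a median of -0.86 in dsbarc and -0.57 in dsmCherry samples and the glutathione list of 0.34 and 0.30, whereas the mitosis list has a median of -1.25 in dsbarc and 0.12 in dsmCherry samples.

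The set difference was also followed along the chromosomes. In windows of 30 consecutive tested genes, 248 in all, the median log2 difference ranged from -0.43 to 0.24, and its 5th and 95th percentiles were -0.19 and 0.17. The lowest window spanned 3R:8538825-9097748. Of its 30 genes 16 were lower and 3 were higher in set 1, against 13.5% and 13.0% of all tested genes. The window was chosen for its low median, so an excess of lower genes follows from the choice. Its core, named after the values were seen, was a run of 7 consecutive tested genes from *CG12360* to *Hsc70-2* within 20.4 kb, 3R:8852747-8873112. All 7 were lower in set 1 and none overlapped between the sets. The share of 8.54% of all genes with set 1 below is no measure for the run, since the same values chose it. The run was picked within the window of lowest median, and no run of another window is given here. Within the run *ry*, which encodes xanthine dehydrogenase and is the classical rosy eye-colour gene, had 2.54, 2.36, 0.987 and 0.991 FPKM in set 1, against 11.02, 9.972, 11.14 and 9.628 FPKM in set 2. *snk*, a serine protease of dorsoventral patterning, had at most 0.144 FPKM in set 1 and 1.62 to 2.22 FPKM in set 2, and overlaps *CG11668* and *CG11670*. The next tested gene downstream, *pic*, was higher in set 1 by 0.34, and the next upstream, *CtBP*, was not called.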

How the data were processed

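Per the submitters' processing notes the authors used TopHat 1.4.1, BWA 0.6.1, HTSeq, DESeq and Cufflinks 1.3.0, without saying for which step. For the build, the annotation and the strand setting, nothing is stated in the sources used here. Expression values are FPKM as deposited by the authors, for 14210 genes, scaled for transcript length and mapped fragments, in 1 table per sample whose columns are those Cufflinks writes. The authors' own deposited comparisons of treatments and the neuroblast tables were not used.

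Genes with status OK in all 8 S2 samples and a mean of at least 1 FPKM were tested, 7603 in all. Of the others, 80 genes lacked status OK in at least 1 sample, 41 of them with a mean of at least 1 FPKM. FPKM plus a pseudocount of 1 was put on the log2 scale, which understates the change of low genes, and fitted in limma 3.58.1 (R 4.3.3) with a mean-variance trend, set and treatment as terms, 5 residual degrees of freedom, two-sided tests and Benjamini-Hochberg adjustment over all tested genes. A gene is called at an adjusted p under 0.05. A second fit added the product of set and treatment. The additive fit gave every called gene the same sign in both treatments, from which nothing is read. The fit of the set effect was tested on simulated data that held no set by treatment interaction. The interaction fit was not tested in this way. Per-sample values are in FPKM and differences are in log2(FPKM + 1). Numbers of fragments came from the upper confidence bounds of the FPKM. Between 92.0% and 92.5% of these numbers per sample lay within 0.02 of a whole number, and replicates differed by more than sampling noise in all groups (chi-square per degree of freedom 4.1 to 131.15).

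The text names, among called genes whose difference had the same sign in both treatments and whose sets did not overlap, the 12 with the largest difference in each direction, the 6 in each direction among genes with a mean of at least 100 FPKM, the 4 largest of each list, and *barc*, 101 genes in all. Every other gene was named after its values were seen. The sets compared and the 34 lists, of which 785 of 792 entries matched a gene of the tables, were chosen with earlier results of these data known. No list was given a test. Set 1 and set 2 share no replicate number. Within a set the numbers link dsbarc and dsmCherry samples, whose deviations from the group means correlated at 0.11 in set 1 and 0.38 in set 2. Coordinates are those of the tables, from an unnamed build before release 6. The commonest difference of gene starts from release 6 was 4174278 bases on 3R (1659 of 3308 genes compared) and 0 on 2L (1129 of 2596). Other genes differed by other amounts, so no single offset converts an arm. Alternatives were other pseudocounts, filters and scalings, no variance trend, no treatment block, each treatment alone, a replicate block, genes of any status and leaving out each sample.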

Additional observations from a re-analysis of the deposited data

Results flagged for a closer look

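The set difference differed between dsbarc and dsmCherry samples in 1702 genes by the interaction term of the limma fit (22.4% of tested genes, adjusted p under 0.05), and 43 of the 101 genes named by rule were among them. The values below are the set difference within dsbarc minus that within dsmCherry samples, on the log2(FPKM + 1) scale, with 2 samples behind each of the 4 groups.

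Among genes higher in set 1, the difference was larger within dsbarc for *CG2065* (2.68), *CG33225* (2.09), *CG42233* (1.70), *rap* (1.5), *CG32082* (1.40), *CG18522* (1.31), *CecB* (1.28), *GstD1* (1.16), *btn* (1.06), *pUf68* (0.82), *debcl* (0.76), *GstD2* (0.72), *CG31694* (0.52), *Cyp12d1-p* (0.50), *Mvl* (0.50) and *CG42708* (0.44). It was smaller within dsbarc for *Pxn* (-0.94) and *GstD5* (-0.87).

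Among genes lower in set 1, the difference was larger within dsbarc, so that the value is negative, for *CG8157* (-3.56), *TotM* (-1.99), *stan* (-1.81), *CG14516* (-1.67), *Obp99a* (-1.54), *roX2* (-1.53), *Ast* (-1.41), *exex* (-1.37), *Act87E* (-1.28), *JhI-21* (-1.26), *mnd* (-1.23), *CG3011* (-1.22), *shg* (-1.20) and *Dr* (-1.09). The same held for *HLHmbeta* (-0.95), *Hsp83* (-0.95), *egr* (-0.84), *Pepck* (-0.83), *aub* (-0.81), *Eip63E* (-0.80), *pirk* (-0.73), *DnaJ-1* (-0.68), *Hop* (-0.60) and *ATPsyn-beta* (-0.54). *Cyp4ac1* had a smaller difference within dsbarc (0.82). For *CG8157* the samples were at 16.5 and 13.5 FPKM in set 1 dsbarc and 57.5 and 70.7 FPKM in set 1 dsmCherry, against 535 and 410 FPKM in set 2 dsbarc and 173 and 149 FPKM in set 2 dsmCherry samples.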

How the results depend on the processing

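No gene that was called between the sets both as reported and under one of the alternatives run changed direction. The 2018 calls numbered 562 without the treatment block (212 higher and 350 lower in set 1, 296 at least 2-fold), 5210 within dsbarc samples (2045 higher, 3165 lower, 1017 at least 2-fold) and 576 within dsmCherry samples (178 higher, 398 lower). With TPM there were 2495 calls, 1625 higher and 870 lower, and with quantile normalisation 2321, of which 56.7% were higher. The at least 2-fold count of 517 was 210 with a pseudocount of 5 and 305 at a mean of at least 5 FPKM, where 666 genes were lower. Leaving out each sample gave 1135 to 2944 calls, 498 to 1396 higher, 631 to 1548 lower, and 651 to 4117 interaction calls. Of the 101 genes named by rule, a call was lost by 39 of the 98 with a value within dsmCherry samples, by 31 without the treatment block, by 6 with quantile normalisation, by 2 with TPM and by 0 to 12 when 1 sample was left out. The cause of these changes was not tested. Groups of 2 samples limit the within-treatment fits.

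With the replicate block as a random effect (estimated correlation -0.3) 2880 genes were called, 1410 higher and 1470 lower, and 2241 in the interaction. With same-numbered samples averaged 2545 were called, 1128 higher and 1417 lower. Of the 101 named genes 0 lost a call under the pairing. The correlation of -0.3 was estimated without an interaction term, so set differences that differ between treatments enter it. Averaging same-numbered samples also takes such differences out of the spread. For this reason the 2 forms cannot show whether the calls hold under the pairing. The lower counts of the heat shock (18, with 19 and 18 under the 2 forms), ribosomal protein (29, with 38 and 20) and antimicrobial lists (10, with 13 and 12) and the higher counts of the glutathione (12, with 16 and 14) and p53 lists (7, with 8 and 8) moved by less than the margin of 1.5 times. Those of the cell cycle, P450, hypoxia, small RNA, proteasome, ribosome biogenesis and lamellocyte lists moved more or gained a call in the other direction. Their values stand beside them in the report. Some other lists did so too, though no count in them changed by more than 3. The metal list went from 1 higher and 0 lower to 2 and 1 (random effect) or 2 and 2 (averaged). The insulin and FOXO list went from 1 and 0 to 3 and 0 or 1 and 1. The muscle list gained 1 higher gene when averaged. The lower count of 1 became 3 or 3 in the EGF receptor list and 3 or 2 in the ecdysone list.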

Other observations

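On chromosome 4, 51 genes were tested. They had a median log2 difference of -0.17, which was -0.17 within dsbarc and -0.16 within dsmCherry samples, against medians of -0.04 to 0.01 on the other arms. Of the 51 genes 6 were lower and 1 was higher in set 1, that is 13.7% called, against 26.5% over all genes. The median of -0.17 lies within the 5th to 95th percentiles of the windows of 30 genes, -0.19 to 0.17. The window of 30 genes with the highest median, 0.24, spanned 3R:16676271-17038409. It held 13 higher and 4 lower genes in set 1, against 13.0% higher and 13.5% lower over all genes. An excess of higher genes follows from its choice by the highest median.

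The lowest window on 3R also holds *yellow-f* and *yellow-f2*, of the yellow family, which lie upstream of the run of lower genes with other tested genes between, and which were named after their values were seen. *yellow-f* had 15.3, 17.7, 40.9 and 44.5 FPKM in set 1, against 58.6, 66.0, 91.2 and 68.9 FPKM in set 2, and overlaps *CG31342*. *yellow-f2* had 0.327, 0.166, 1.03 and 1.18 FPKM in set 1, against 2.97, 2.61, 4.54 and 3.89 FPKM in set 2. Both were lower in set 1, with log2 differences of -1.37 and -1.46 (limma adjusted p = 0.00154 and 9.98e-05), and in neither did the sets overlap.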
